A study of Rattus norvegicus with 11 samples.

Results

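Cells recovered from rat calvarial defects that held a polylactic acid (PLA) electrospun membrane were compared by RNA-seq with cells from defects that held a gelatin methacryloyl (GelMA) hydrogel. The libraries were chosen by the scaffold named in their labels, which gave 2 PLA and 3 GelMA libraries, 5 of the 11 libraries of the series. All animals were Sprague Dawley rats labelled 4 months old, with a composite defect of suture and bone, and the new tissue was taken 6 weeks after surgery. It was digested with type 1 collagenase and sorted for Cd45- cells, the fraction that should lack leukocytes. The other groups were porous chitosan (CTS, 3 libraries) and no scaffold (NC, 3 libraries). No label says whether libraries of a group came from separate animals, so the p-values measure only the spread between these samples, which may be technical. Of 23781 genes in the count table, 18049 had enough counts to be tested.

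An implanted material is met first by neutrophils and then by macrophages, which can persist at its surface and fuse into foreign-body giant cells. Macrophages that are activated through NF-κB, a family of transcription factors kept inactive by inhibitors of the IκB family, make interleukin-1, TNF and chemokines and shift towards glycolysis. NRF2 is a further transcription factor that raises antioxidant and iron-storing proteins. B cells carry the B cell receptor with its signaling chains Cd79a and Cd79b, and T cells carry the CD3 chains.

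The 11 libraries held 22509898 to 31290849 counts, and the 5 compared here 29108144 to 30932534. Ptprc, which encodes Cd45 itself, had between 7446 and 44842 counts in every library, so the Cd45- label went against the transcripts, and leukocyte genes could be measured in all groups. CPM values here are counts scaled by the library total multiplied by the trimmed-mean composition factor given below, not by the total alone. Ptprc was at 1019.6 and 1055 CPM in PLA and 1347, 1138 and 1259 CPM in GelMA, and the groups did not overlap (log2 fold change -0.27, SE 0.46, adjusted p = 0.769, edgeR's quasi-likelihood test with Benjamini-Hochberg adjustment, as for every adjusted p that follows). The 100 most abundant genes took 30.2% and 32.1% of counts in PLA and 23.0% to 24.1% in GelMA. The trimmed-mean (TMM) composition factors were 0.780 and 0.772 in PLA and 1.12 to 1.14 in GelMA. NC replicate 2 stood apart from the other NC libraries, with 16.9% of its counts in collagen genes and 336 CPM of Ptprc. In bulk samples, fewer cells of a type and less RNA per cell cannot be told apart.

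A gene was called when its adjusted p was under 0.05 and its log2 fold change beyond 1. With PLA set against GelMA, 832 genes were called higher in PLA (4.61% of the 18049 tested) and 266 lower (1.47%), together 6.08%. Both PLA libraries lay above all 3 GelMA libraries in 27.7% of genes and below them in 30.7%, whether called or not. These shares over all genes are the background for every list count of PLA against GelMA that follows. The balance of rises and falls depended on the scaling, since with library size alone in place of TMM the median gene moved by -0.54 on the log2 scale and the calls became 438 higher and 2312 lower (15.9% higher, against 75.8% with TMM). None of the 1098 called genes changed sign under that scaling. Called genes lay beyond a log2 fold change of 1 and the shift was smaller, so this outcome was nearly fixed in advance. The counts also rested on single libraries. Leaving out PLA replicate 1 gave 366 rises and 38 falls, leaving out PLA replicate 2 gave 373 and 44, and leaving out NC replicate 2 gave 1288 and 624. Leaving out GelMA replicate 1, 2 or 3 gave 414, 429 and 539 higher and 66, 86 and 121 lower, and without NC replicate 1 the falls numbered 409. Where a PLA library was left out, the remaining one was assumed to vary like the other groups.

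**Figure D1:**
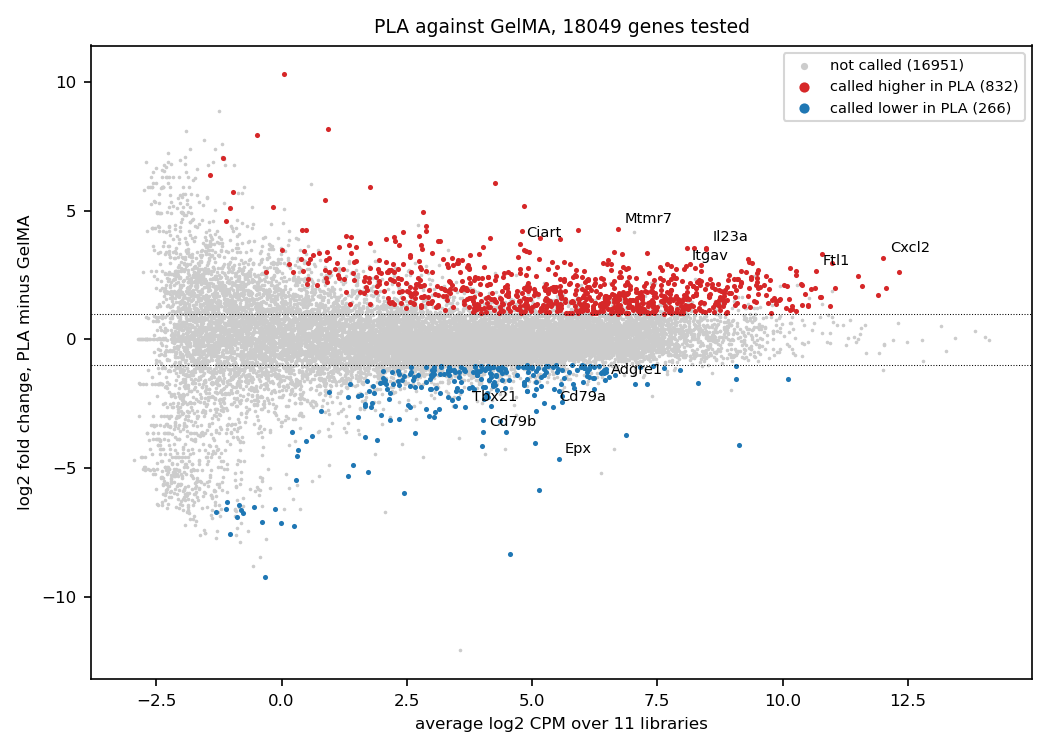
Log2 fold change of PLA over GelMA (y axis) against the average log2 CPM over 11 libraries (x axis) for the 18049 genes tested. Red points are the 832 genes called higher in PLA and blue points the 266 called lower, and the dotted lines mark a log2 fold change of 1 in each direction. Rises such as Cxcl2 and Ftl1 lay among abundant genes, and the named falls, Cd79b, Cd79a, Tbx21, Adgre1 and Epx, lay lower on the x axis.

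The largest rises were in genes of varied function. Tcp11, a testis-expressed gene, was at 107 and 128 CPM in PLA and 7.63, 5.19 and 6.28 CPM in GelMA (log2 fold change 4.21, SE 0.67, adjusted p = 0.00453). Tmem38b, which encodes the endoplasmic reticulum cation channel TRIC-B, was at 320.5 and 374 CPM in PLA and 33.8, 32.9 and 31.8 CPM in GelMA (log2 fold change 3.40, SE 0.40, adjusted p = 9.33e-04). Cyp4f18, an enzyme that oxidises leukotriene B4, was at 475 and 459 CPM in PLA and 41.5, 50.5 and 45.1 CPM in GelMA (log2 fold change 3.35, SE 0.58, adjusted p = 0.00692). The largest rises and falls were taken only from genes whose PLA and GelMA libraries did not overlap, so that separation is not a result. Ccr1l1, a chemokine receptor gene close in sequence to Ccr1, was at 64.01 and 63.5 CPM in PLA and 4.36, 4.86 and 6.54 CPM in GelMA (log2 fold change 3.60, SE 0.47, adjusted p = 0.00175), and reads shared between such copies could have been split. Ca4, a membrane-bound carbonic anhydrase, was at 1672 and 1728 CPM in PLA and 98.7, 148 and 205 CPM in GelMA (log2 fold change 3.50, SE 0.67, adjusted p = 0.0121), and its call was lost without PLA replicate 1 or 2 or GelMA replicate 1 or 2 (adjusted p from 1.87e-42 to 0.0632 over the alternative settings, as for every such range that follows).

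Lymphocyte genes were among the largest falls. Tbx21, the T-bet transcription factor of type 1 T cells and natural killer cells, was at 6.92 and 3.57 CPM in PLA and 33.5, 32.6 and 31.8 CPM in GelMA (log2 fold change -2.64, SE 0.39, adjusted p = 0.00299). Lax1, an adaptor of B and T cell receptor signaling, was at 6.63 and 20.97 CPM in PLA and 126, 96.8 and 61.5 CPM in GelMA (log2 fold change -2.78, SE 0.52, adjusted p = 0.0108), and Fcrl5, an Fc receptor-like protein of B cells, was at 2.24 and 4.68 CPM in PLA and 29.5, 23.9 and 18.9 CPM in GelMA (log2 fold change -2.80, SE 0.62, adjusted p = 0.0215). Lack of overlap was a condition for naming these falls. The call of Lax1 was lost without PLA replicate 1 (adjusted p from 1.08e-06 to 0.0717), and that of Fcrl5 without either PLA library or GelMA replicate 1 or 2 (adjusted p from 4.92e-15 to 0.175). A fall outside the lymphocyte genes was that of Fam111a, a protease that acts at replication forks, at 8.21 and 7.61 CPM in PLA and 47.6, 111 and 155 CPM in GelMA (log2 fold change -3.73, SE 0.59, adjusted p = 0.00437), lost without either PLA library (adjusted p from 3.36e-10 to 0.0641).

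**Figure D2:**
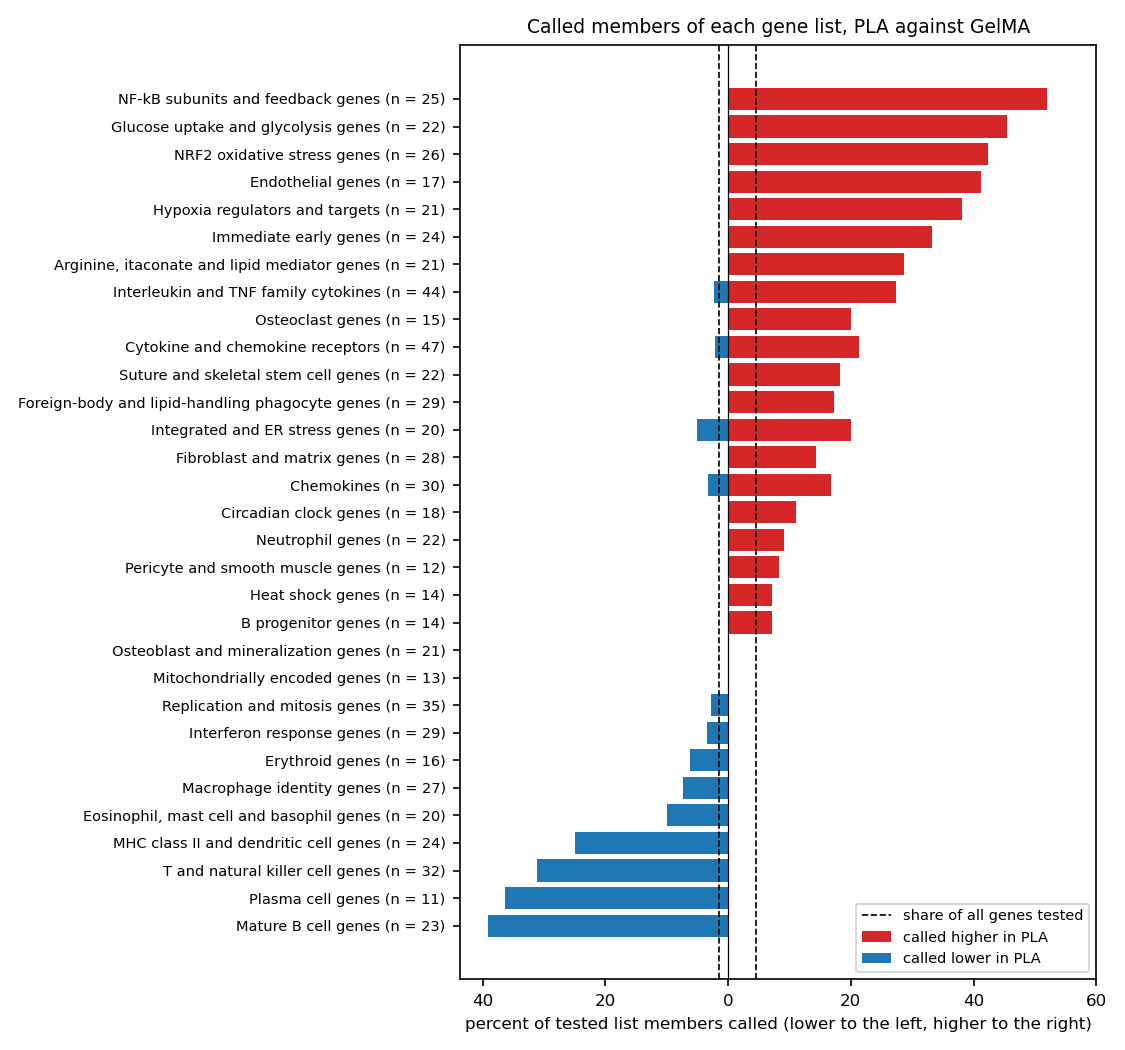
Percent of the tested members of each of 31 gene lists called higher (red, to the right) or lower (blue, to the left) in PLA than in GelMA, with the number tested in brackets. Dashed lines mark the shares over all genes tested, 4.61% higher and 1.47% lower. NF-κB genes had the highest share of rises and mature B cell genes the highest share of falls.

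Macrophage transcripts were raised over NC under both scaffolds. Of 27 macrophage identity genes, 16 were called higher in GelMA than NC and 11 in PLA than NC, against 5.03% and 8.32% of all genes, with median log2 fold changes of 1.77 and 1.18. These 2 comparisons share the NC libraries. By summed counts the same list took 0.641 and 0.660% of PLA counts, 1.20, 1.27 and 0.877% of GelMA counts and 1.34, 0.289 and 1.15% of NC counts, a sum in which the abundant lysozyme gene Lyz2 weighs most. Both PLA values lay below those of NC replicates 1 and 3. Between PLA and GelMA, 2 of the 27 were called, both lower in PLA, and the list median was -0.42 beside -0.04 over all genes.

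Adgre1, which encodes the macrophage surface protein F4/80, was at 71.3 and 85.2 CPM in PLA and 286, 243 and 179 CPM in GelMA (log2 fold change -1.59, SE 0.24, adjusted p = 0.00306). Mrc1, the mannose receptor of tissue macrophages, was at 73.8 and 84.8 CPM in PLA and 192, 223 and 155 CPM in GelMA (log2 fold change -1.26, SE 0.33, adjusted p = 0.0406). Neither overlapped between the groups, and both remained above NC in PLA (log2 fold change over NC 2.80 and 1.29). The call of Adgre1 was lost without PLA replicate 1 (adjusted p from 2.32e-13 to 0.0540), and that of Mrc1 without 8 of the 11 libraries in turn (adjusted p from 6.66e-11 to 0.234). Over the 27 members, leaving out 1 library gave 0 to 7 calls, with 0 without PLA replicate 1, 7 without NC replicate 1, 6 without NC replicate 2, 4 without CTS replicate 3, and 1 without PLA replicate 2, NC replicate 3, CTS replicate 1 or any 1 GelMA library.

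Other members, chosen here after their values were seen, had values in both directions, and none of these was called. The complement genes C1qa, C1qb and C1qc had log2 fold changes of -1.48, -1.48 and -1.87, and the scavenger and lectin receptors Siglec1 and Cd163 had -2.11 and -3.30. Csf1r, the receptor on which macrophages depend for survival, was at 112 and 127 CPM in PLA and 209, 232 and 223 CPM in GelMA (log2 fold change -0.89, adjusted p = 0.0366, within the fold threshold). On the other side stood the Fc receptor chain Fcer1g (1.41), the scavenger receptor Msr1 (1.06), the signaling adaptor Tyrobp (0.95) and the integrin chain Itgam (0.94), in each of which both PLA libraries lay above the GelMA libraries. Cd14 overlapped between the groups.

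Mature B cell genes were lower in PLA than in GelMA. Of 23 tested members, 9 were called lower (39.1%, against 1.47% of all genes), and the list median was -1.99 beside -0.04 over all genes. In 20 members both PLA libraries lay below all GelMA libraries, against 30.7% of all genes. Against NC the same list had 16 members called higher in GelMA (median 2.92) and 4 in PLA (median 0.40). Of all genes, 5.03% were called higher in GelMA than NC and 8.32% in PLA than NC. The list took 0.0320 and 0.0371% of counts in PLA, 0.142, 0.118 and 0.107% in GelMA and 0.0487, 0.0323 and 0.0468% in NC. Immunoglobulin chain genes were not analysed here.

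Among the receptor genes, Cd79a, a signaling chain of the B cell receptor, was at 13.8 and 16.6 CPM in PLA and 109, 99.9 and 74.2 CPM in GelMA (log2 fold change -2.63, SE 0.34, adjusted p = 0.00156), and at 12.5, 10.5 and 20.7 CPM in NC. Cd79b, the partner chain, was at 2.20 and 4.60 CPM in PLA and 45.4, 41.9 and 36.3 CPM in GelMA, with a log2 fold change of -3.60. In both of these the PLA libraries fell within or next to the range of NC and below CTS as well as GelMA. Cr2, a complement receptor of B cells, was at 1.74 and 2.92 CPM in PLA and 18.3, 12.6 and 14.8 CPM in GelMA (log2 fold change -2.71, SE 0.56, adjusted p = 0.0162). Ms4a1, which encodes CD20, was at 2.36 and 8.98 CPM in PLA and 86.02, 64.04 and 54.4 CPM in GelMA (log2 fold change -3.59, SE 0.76, adjusted p = 0.0189), and PLA replicate 2 held several times the level of PLA replicate 1. Cd22, an inhibitory receptor of B cells, was at 15.1 and 17.8 CPM in PLA and 79.3, 63.1 and 53.6 CPM in GelMA (log2 fold change -1.99, SE 0.22, adjusted p = 7.48e-04).

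Of the transcriptional regulators, Pax5 and Pou2af1 were called lower. Pax5, the transcription factor that holds B cell identity, was at 3.52 and 5.54 CPM in PLA and 28.2, 20.3 and 17.3 CPM in GelMA (log2 fold change -2.27, SE 0.52, adjusted p = 0.0242). Pou2af1, a coactivator of octamer-binding factors needed for germinal centres, was at 11.4 and 31.7 CPM in PLA and 117, 120.3 and 107 CPM in GelMA (log2 fold change -2.41, SE 0.46, adjusted p = 0.0114). Both lay below every GelMA library, though the PLA libraries were apart from each other for Pou2af1. Bank1, a scaffold protein of B cell receptor signaling, was also called lower. Among members that were not called, Ebf1, Btk and Ralgps2 had log2 fold changes of 0.15, -0.09 and 0.37, and Fcer2 had 1 count over the PLA libraries and 126 over the GelMA libraries.

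The calls of Cd79a, Cd79b, Bank1 and Cd22 held in all 22 alternatives. That of Pou2af1 was lost without PLA replicate 1 (adjusted p from 6.48e-06 to 0.0775), and the count of B cell falls was then 4 rather than 9. Ms4a1 (adjusted p from 1.65e-06 to 0.137), Cr2 (adjusted p from 5.30e-15 to 0.148) and Pax5 (adjusted p from 5.50e-12 to 0.190) were each lost without PLA replicate 1 and without GelMA replicate 1, Ms4a1 and Pax5 also without GelMA replicate 2, and Cr2 and Pax5 also without PLA replicate 2.

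**Figure D3:**
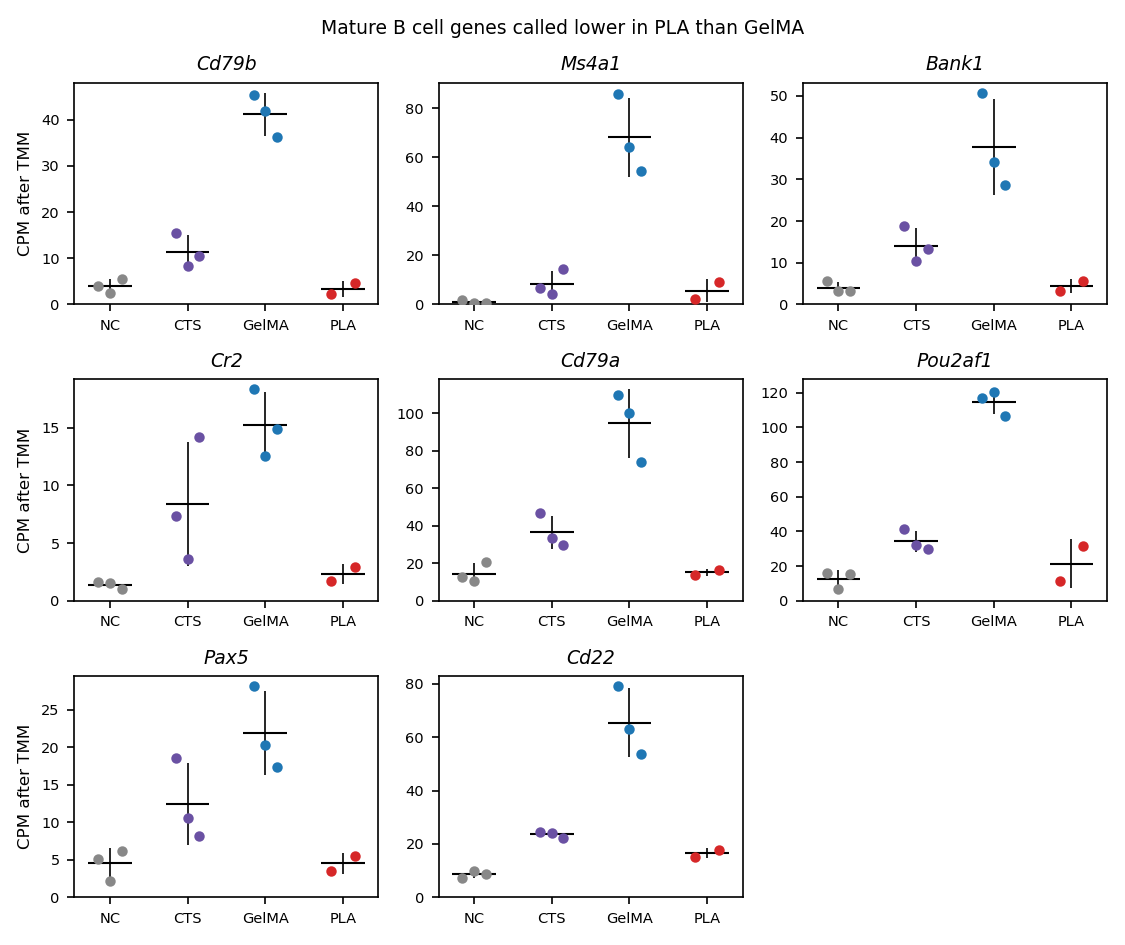
CPM after TMM scaling (y axes, starting at 0) of 8 of the 9 mature B cell genes called lower in PLA than in GelMA, by group. Points are libraries, horizontal lines group means and vertical lines 1 SD. In every panel both PLA libraries lie below the 3 GelMA libraries, and the CTS mean lies between the PLA and GelMA means.

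No early B lineage gene was called lower. Of 14 B progenitor genes, 1 was called higher, Erg, at 19.8 and 20.03 CPM in PLA and 7.84, 9.44 and 7.94 CPM in GelMA (log2 fold change 1.24, SE 0.34, adjusted p = 0.0483), a gene that endothelial cells express as well, and its call was lost under 15 alternatives (adjusted p from 2.29e-08 to 0.446). None was called lower by edgeR's quasi-likelihood test, none had an unadjusted p under 0.05 for a fall and none was called lower by DESeq2 on all 4 groups, but 1 was with edgeR on the 5 libraries and 1 without NC replicate 2. The list median was 0.03. Erg was at 52.9, 19.7 and 44.7 CPM in NC and 26.9, 37.3 and 28.4 CPM in CTS. It was called lower in GelMA than NC (log2 fold change -2.22, adjusted p = 0.00262) and was not called between PLA and NC (log2 fold change -0.97). The surrogate light chain genes Vpreb1 and Vpreb2 and the recombination genes Rag1 and Rag2 had at most 1.02 CPM in any of the 5 libraries.

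Plasma cell genes were called lower for 4 of 11 members (36.4%, median -1.67). Mzb1, a chaperone of immunoglobulin assembly, was at 10.2 and 47.1 CPM in PLA and 146, 129.8 and 113 CPM in GelMA (log2 fold change -2.18, SE 0.55, adjusted p = 0.0378), and the PLA libraries differed from each other more than the GelMA libraries did. Slamf7, a surface receptor of plasma cells, was at 13.5 and 19.3 CPM in PLA and 71.8, 74.7 and 75.7 CPM in GelMA (log2 fold change -2.18, SE 0.50, adjusted p = 0.0247). Tnfrsf17, the survival receptor BCMA, was at 0.663 and 1.59 CPM in PLA and 4.90, 5.34 and 5.93 CPM in GelMA (log2 fold change -2.25, SE 0.58, adjusted p = 0.0381). In contrast Xbp1, Prdm1 and Sdc1, which other cell types express too, were not called. The 4 calls fell to 0 without PLA replicate 1 or any 1 GelMA library and to 2 without PLA replicate 2, and rose to 8 without NC replicate 2 (adjusted p from 0.00102 to 0.116 for Mzb1, 3.68e-29 to 0.190 for Slamf7 and 1.19e-05 to 0.236 for Tnfrsf17).

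A part of the T and natural killer cell genes fell as well. Of 32 members, 10 were called lower (31.2%, against 1.47% of all genes), and the median was -1.57. Both PLA libraries lay below GelMA in 26, against 30.7% of all genes. Against NC, 28 members were called higher in GelMA and 22 in PLA (medians 3.75 and 2.11), beside 5.03% and 8.32% of all genes. The mature B cell list had 16 and 4 of 23 (medians 2.92 and 0.40). Cd3d, a chain of the T cell receptor complex, was at 9.95 and 11.6 CPM in PLA and 38.7, 47.4 and 52.1 CPM in GelMA and at 1.44, 1.90 and 2.60 CPM in NC (log2 fold change -2.09, SE 0.51, adjusted p = 0.0321). Cd27, a costimulatory receptor of T and memory B cells, was at 2.78 and 2.88 CPM in PLA and 20.7, 21.9 and 25.6 CPM in GelMA (log2 fold change -3.003, SE 0.56, adjusted p = 0.0103). Cxcr3, the receptor that draws type 1 T cells to inflamed tissue, was at 9.20 and 6.27 CPM in PLA and 25.7, 33.6 and 33.6 CPM in GelMA (log2 fold change -2.001, SE 0.54, adjusted p = 0.0461). All 3 were lower in each PLA library than in any GelMA library, and Lck, Tcf7, Cd6, Bcl11b, Cd247 and Cd8a were called lower with log2 fold changes between -1.99 and -1.78.

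None of the granzyme genes, Nkg7 and Prf1 was called. Gzmk and Nkg7 had log2 fold changes of -1.82 and -1.34 (adjusted p = 0.0792 and 0.160). Gzma, Gzmb and Prf1 overlapped between the groups, with log2 fold changes of -0.40, 0.48 and -0.32, and Ncr1, a natural killer cell receptor named after its values were seen, was at 32.7 and 32.7 CPM in PLA and 7.63, 8.92 and 11.9 CPM in GelMA (log2 fold change 1.79, adjusted p = 0.0704). The 10 T cell calls rested on every library of the comparison, with 0 without PLA replicate 1, 1 without PLA replicate 2 and 3 without any 1 of the GelMA libraries, while library size alone gave 21 and edgeR on the 5 libraries 25 (adjusted p from 1.73e-22 to 0.200 for Cd3d, 1.36e-32 to 0.106 for Cd27 and 1.98e-14 to 0.287 for Cxcr3).

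A part of the MHC class II genes was lower in PLA. Of 24 MHC class II and dendritic cell genes, 6 were called lower (25.0%, median -1.04). Against NC, 20 were called higher in GelMA and 9 in PLA, beside 5.03% and 8.32% of all genes. Ciita, the master coactivator of MHC class II genes, was at 5.18 and 5.33 CPM in PLA and 21.9, 20.9 and 23.3 CPM in GelMA (log2 fold change -2.07, SE 0.51, adjusted p = 0.0342). RT1-Da, the alpha chain of a rat class II molecule, was at 313 and 427 CPM in PLA and 1135, 1094 and 1037 CPM in GelMA (log2 fold change -1.56, SE 0.41, adjusted p = 0.0423), and RT1-DOa, part of the peptide-loading modulator, was at 2.61 and 2.15 CPM in PLA and 11.9, 9.35 and 9.02 CPM in GelMA (log2 fold change -2.08, SE 0.50, adjusted p = 0.0310). The groups did not overlap in these 3, and Cd74, Cd80 and RT1-DMb were also called lower. RT1 genes belong to a family of similar sequences, so their reads could have been split between members. B cells express these genes too, and the part of the B cell fall in them was not tested. All 6 calls were lost without any 1 of the 5 PLA and GelMA libraries, and 8 were made without NC replicate 2 (adjusted p from 5.85e-21 to 0.198 for Ciita, 4.86e-21 to 0.257 for RT1-Da and 5.56e-10 to 0.208 for RT1-DOa).

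Rises were called among cytokine genes. Of 44 interleukin and TNF family genes 12 were called higher and 1 lower (27.3% higher), with a median of 0.72. Il19, an interleukin of the IL-10 family made by myeloid cells, was at 33.3 and 27.9 CPM in PLA and 1.95, 2.25 and 3.04 CPM in GelMA (log2 fold change 3.66, SE 0.42, adjusted p = 8.41e-04). Il23a, the p19 subunit of IL-23, and Ebi3, a subunit of IL-27 and IL-35, had log2 fold changes of 3.55 and 3.55 over GelMA and of 7.96 and 5.15 over NC. Il12b, the other IL-23 subunit, had 56 counts over the 2 PLA libraries and 253 over the 3 GelMA libraries. The Ebi3 partners Il27 and Il12a had 15 and 175 counts in PLA and 32 and 239 in GelMA. The cytokines IL-23, IL-27 and IL-35 themselves were not measured. Il1b was at 13060.3 and 13840.4 CPM in PLA and 2412, 3339.8 and 4323 CPM in GelMA, and its antagonist Il1rn at 11477 and 11326 CPM in PLA and 1139, 2003 and 3132 CPM in GelMA. Both were called, as were Tnf, Il1a, Csf3, Il10, Inhba, Il36b and Tgfb3, where the last 5 had log2 fold changes between 1.22 and 2.32. The fall was Il16, a chemoattractant of CD4+ cells, at 9.04 and 10.2 CPM in PLA and 28.2, 32.4 and 36.5 CPM in GelMA (log2 fold change -1.75, SE 0.46, adjusted p = 0.0432), lost without 9 of the 11 libraries in turn (adjusted p from 1.24e-15 to 0.230). The 12 rises were 6 without PLA replicate 1, 5 without PLA replicate 2 and 7, 6 and 8 without GelMA replicate 1, 2 and 3.

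Chemokine genes changed in both directions. Of 30 members 5 were called higher and 1 lower (16.7% and 3.33%, against 4.61% and 1.47% of all genes), with a median of -0.12. The neutrophil-attracting Cxcl2, at 17203 and 18102 CPM in PLA and 1599, 1771 and 2571 CPM in GelMA, and the macrophage-derived Ccl3, at 7709.7 and 7749 CPM in PLA and 585, 757 and 1023 CPM in GelMA, were called higher in all 22 alternatives. Ccl20, the ligand of Ccr6, was at 32.96 and 45.8 CPM in PLA and 4.66, 5.10 and 5.40 CPM in GelMA (log2 fold change 2.96, SE 0.68, adjusted p = 0.0265). In these the lowest PLA library was several times the highest GelMA library. Ccl5, which T cells and macrophages release, was at 46.02 and 34.8 CPM in PLA and 157, 145 and 140.1 CPM in GelMA (log2 fold change -1.87, SE 0.47, adjusted p = 0.0377), lower in both PLA libraries. The calls of Ccl20 and Ccl5 were lost without any 1 of the 5 libraries (adjusted p from 5.55e-37 to 0.152 and 1.10e-28 to 0.247), and the 5 rises were then 3. Without NC replicate 2 the falls in the cytokine and chemokine lists were 2 each.

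Of 47 cytokine and chemokine receptors, 10 were called higher and 1 lower (21.3% higher). Tnfrsf1b, TNF receptor 2, was at 2788 and 2817 CPM in PLA and 383, 500.4 and 664 CPM in GelMA (log2 fold change 2.44, SE 0.29, adjusted p = 0.00100). Ccrl2, a chemerin-binding receptor, was at 1200.1 and 1399.7 CPM in PLA and 97.7, 199 and 331 CPM in GelMA (log2 fold change 2.64, SE 0.43, adjusted p = 0.00494). The receptors called with them took in Il1rap, Il10rb, Fas, Csf2rb, Ifnar1, Ifnar2 and the decoy receptor Il1r2. Ccr1, a receptor of Ccl3 and Ccl5, was at 1099 and 973 CPM in PLA and 143, 229.7 and 319.9 CPM in GelMA (log2 fold change 2.17, SE 0.57, adjusted p = 0.0421), a call lost without 9 of the 11 libraries in turn (adjusted p from 2.18e-06 to 0.182). The fall was Il18r1, the receptor of IL-18 on T and natural killer cells, at 19.7 and 18.6 CPM in PLA and 74.2, 50.7 and 56.4 CPM in GelMA (log2 fold change -1.66, SE 0.22, adjusted p = 0.00169), kept in all 22 alternatives, and without NC replicate 2 there were 3 falls. The list median of 0.47 became -0.06 with library size alone.

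NF-κB genes had the highest share of calls of the 31 lists, with 13 of 25 higher (52.0%) and a median of 1.13. Map3k8, the kinase TPL2 downstream of toll-like receptors, was at 884 and 899.6 CPM in PLA and 156, 183 and 228 CPM in GelMA (log2 fold change 2.24, SE 0.21, adjusted p = 4.79e-04). Sod2, mitochondrial superoxide dismutase, was at 4176 and 3972 CPM in PLA and 743, 971 and 1111 CPM in GelMA (log2 fold change 2.11, SE 0.24, adjusted p = 7.48e-04). Nfkbiz, the inducible nuclear IκBζ, was at 4352 and 4512 CPM in PLA and 923, 1094 and 1309 CPM in GelMA (log2 fold change 1.999, SE 0.19, adjusted p = 4.76e-04). Each PLA library was above every GelMA library in the 3 genes. Feedback inhibitors took up much of the rest, with Nfkbia, Nfkbib, Nfkbid, Tnip1 and Tnfaip3 called higher beside the adaptors Traf1 and Traf3, the survival gene Birc3 and the adhesion molecule Icam1. Among the subunits, Nfkb2 was called higher (log2 fold change 1.87), whereas Nfkb1, Relb, Rel and Rela, named after their values were seen, had 0.82, 0.81, 0.52 and 0.43 and did not pass the fold threshold. The count was 10 without PLA replicate 1 or 2 or GelMA replicate 1 or 2. Against NC, 18 of the 25 were called higher in PLA and 4 in GelMA, beside 8.32% and 5.03% of all genes.

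The proximal promoters of the 3 NF-κB list genes with the largest rises are given because this list had the highest share of calls. They are RefSeq sequences on the build GRCr8, running 5′ to 3′ from 250 bases before to 50 after the gene start. They lie at chr17:58077925-58078224 on the + strand for Map3k8, chr1:50050119-50050418 on the - strand for Sod2 and chr11:58251471-58251770 on the + strand for Nfkbiz, whereas the counts were made on mRatBN7.2. Capitals mark a kappa B motif in Map3k8 and Nfkbiz and an antioxidant response element (TGACNNNGC) in Sod2. Both strands were searched.
Map3k8: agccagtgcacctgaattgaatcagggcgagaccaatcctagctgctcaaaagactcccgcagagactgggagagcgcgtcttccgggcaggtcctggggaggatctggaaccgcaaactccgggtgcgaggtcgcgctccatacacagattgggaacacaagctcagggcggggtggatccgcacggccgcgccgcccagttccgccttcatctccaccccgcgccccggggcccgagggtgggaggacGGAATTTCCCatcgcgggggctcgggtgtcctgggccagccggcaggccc
Sod2: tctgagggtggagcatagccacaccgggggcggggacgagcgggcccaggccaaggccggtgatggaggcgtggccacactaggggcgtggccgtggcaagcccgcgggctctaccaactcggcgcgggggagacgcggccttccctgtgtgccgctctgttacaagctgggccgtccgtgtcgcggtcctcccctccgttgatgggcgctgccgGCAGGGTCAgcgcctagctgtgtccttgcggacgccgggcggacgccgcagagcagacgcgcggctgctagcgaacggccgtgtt
Nfkbiz: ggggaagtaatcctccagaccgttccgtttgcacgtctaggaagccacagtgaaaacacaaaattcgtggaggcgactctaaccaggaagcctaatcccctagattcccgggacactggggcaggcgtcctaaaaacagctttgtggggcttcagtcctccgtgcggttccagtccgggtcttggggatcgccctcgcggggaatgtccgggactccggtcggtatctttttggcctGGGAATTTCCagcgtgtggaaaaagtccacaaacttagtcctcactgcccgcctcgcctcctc

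The motif of Map3k8 lay at the gene start and read on the minus strand, that of Sod2 began 35 bases before the start on the minus strand, and that of Nfkbiz 13 bases before the start. A promoter was in the table for 13222 of the 18049 genes tested, and 9.52% of them held the kappa B motif. It was present in 12.9% of the 614 promoters of genes called higher in PLA, in 7.04% of the 199 of genes called lower, and in 11 of 21 promoters of the NF-κB list (52.4%), 7 of them among its 12 called members with a promoter. The octamer ATGCAAAT, which Pou2f factors read with the protein of Pou2af1, was in 1.38% of promoters of genes tested and in 1 of 14 of the mature B cell list. A match describes letters in the window and not a bound site.

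NRF2 target genes were called higher for 11 of 26 members (42.3%, median 0.93). Srxn1, which repairs oxidised peroxiredoxins, had a log2 fold change of 3.53. Slc7a11, the cystine importer that feeds glutathione synthesis, was at 788 and 816 CPM in PLA and 116, 107 and 138 CPM in GelMA (log2 fold change 2.73, SE 0.41, adjusted p = 0.00344). Ftl1, the ferritin light chain that stores iron, was at 5766 and 5292 CPM in PLA and 719, 931 and 986 CPM in GelMA (log2 fold change 2.65, SE 0.22, adjusted p = 3.32e-04), although ferritin genes have near-identical copies that could share its reads. These were higher in both PLA libraries than in any GelMA library, and all 3 calls held in the 22 alternatives. Hmox1, the haem-degrading enzyme that frees iron, was at 579 and 607 CPM in PLA and 61.5, 139 and 185 CPM in GelMA (log2 fold change 2.20, SE 0.47, adjusted p = 0.0197), lost without PLA replicate 1 or 2 or GelMA replicate 1 or 2 (adjusted p from 1.18e-04 to 0.110). The remaining rises were Fth1, Nqo1, Osgin1, Sqstm1, Txnrd1, Nfe2l2, which encodes NRF2, and its partner Mafg. Not every target moved, since the glutathione enzyme gene Gclm overlapped between the groups (log2 fold change 0.34) and Keap1, the NRF2 inhibitor, had -0.46. Relative to NC, 10 members were called higher in PLA and 2 in GelMA, beside 8.32% and 5.03% of all genes. The antioxidant response element was found in 14.1% of promoters of genes tested, in 6 of 20 of this list and in 1 of its 8 called members with a promoter.

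Glucose uptake and glycolysis genes were called higher for 10 of 22 members (45.5%, median 1.36). Slc2a1, the glucose transporter GLUT1, was at 1799.8 and 1898 CPM in PLA and 340.4, 432 and 546 CPM in GelMA (log2 fold change 2.07, SE 0.33, adjusted p = 0.00433). Tpi1, triose phosphate isomerase, was at 1669 and 1768 CPM in PLA and 241, 307 and 367 CPM in GelMA (log2 fold change 2.49, SE 0.30, adjusted p = 0.00115). Slc2a6, a transporter of activated macrophages, was at 86.4 and 99.6 CPM in PLA and 22.98, 25.3 and 24.8 CPM in GelMA (log2 fold change 1.93, SE 0.45, adjusted p = 0.0274). PLA stood above GelMA without overlap in 19 of the 22 members, against 27.7% of all genes. Among them were Ldha, Pkm, Aldoa, Pfkl, Pgam1, Hk1 and the pyruvate dehydrogenase kinase Pdk1, called with log2 fold changes between 1.28 and 1.81. Slc2a6 lost its call without any 1 of the 5 libraries (adjusted p from 8.61e-38 to 0.155). The count of 10 became 4 with library size alone, 16 with edgeR on the 5 libraries, 6 without either PLA library and 16 without NC replicate 2.

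Hypoxia regulators and targets were called higher for 8 of 21 members (38.1%, median 1.33). PLA lay above GelMA without overlap in 20, against 27.7% of all genes. Ero1a, an oxidase of protein folding, was at 780.4 and 846 CPM in PLA and 95.7, 102 and 127 CPM in GelMA (log2 fold change 2.91, SE 0.24, adjusted p = 3.04e-04). Egln3, a prolyl hydroxylase that marks HIF proteins for breakdown and is itself a HIF target, was at 219.9 and 257 CPM in PLA and 38.7, 42.8 and 61.99 CPM in GelMA (log2 fold change 2.32, SE 0.34, adjusted p = 0.00294). Bnip3, a mitophagy receptor, was at 356 and 389 CPM in PLA and 39.9, 48.1 and 60.5 CPM in GelMA (log2 fold change 2.91, SE 0.79, adjusted p = 0.0468). All 3 were several times higher in each PLA library, but the call of Bnip3 was lost without 9 of the 11 libraries in turn (adjusted p from 4.01e-53 to 0.185). Hif1a and Vegfa, named after their values were seen, had log2 fold changes of 0.61 and 1.63 with adjusted p = 0.101 and 0.0664. The 8 calls became 5 without any 1 of the PLA and GelMA libraries.

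**Figure D4:**
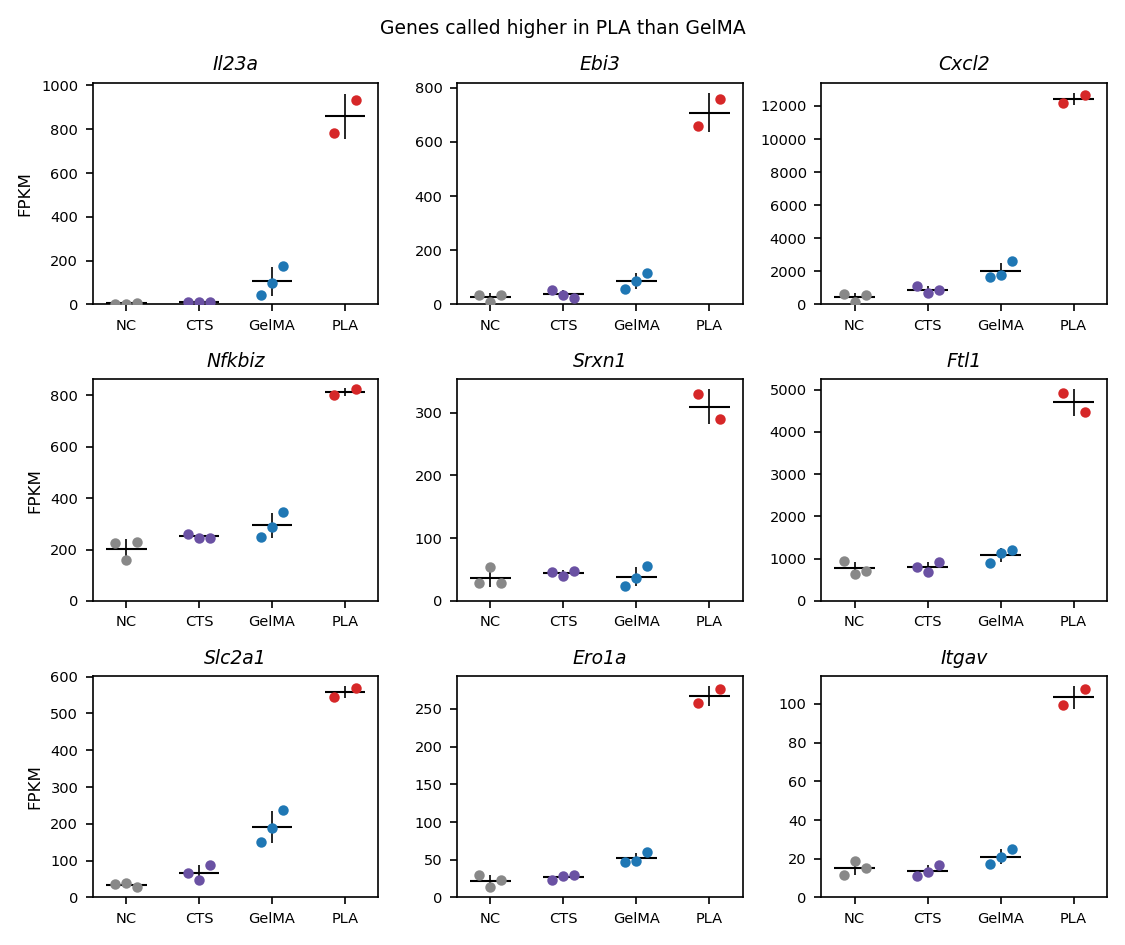
FPKM as deposited (y axes, starting at 0) of 9 genes called higher in PLA than in GelMA, by group. Points are libraries, horizontal lines group means and vertical lines 1 SD. In every panel the 2 PLA libraries lie above all 9 others, and the GelMA libraries stand nearer to NC and CTS than to PLA.

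Genes of arginine, itaconate and lipid mediator metabolism were called higher for 6 of 21 members (28.6%). Acod1, which makes itaconate in activated macrophages, was at 4141 and 4876 CPM in PLA and 439, 636 and 914 CPM in GelMA (log2 fold change 2.77, SE 0.46, adjusted p = 0.00568). Arg2, the mitochondrial arginase, was at 40.7 and 36.6 CPM in PLA and 3.39, 3.85 and 5.66 CPM in GelMA (log2 fold change 3.16, SE 0.56, adjusted p = 0.00768). Ptgs2, the inducible cyclooxygenase, was at 2355 and 2285 CPM in PLA and 403, 468 and 602 CPM in GelMA (log2 fold change 2.24, SE 0.57, adjusted p = 0.0389). Each was higher in both PLA libraries, as were Nos2, Slc7a2 and Ptger2, whereas Arg1, the cytosolic arginase, overlapped between the groups (log2 fold change 0.77). Arg2 lost its call without PLA replicate 1 (adjusted p from 2.01e-32 to 0.0558) and Ptgs2 without 8 of the 11 libraries in turn (adjusted p from 2.94e-35 to 0.161), and the 6 calls were 2 without PLA replicate 1 and 3 without any 1 of the other PLA and GelMA libraries.

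A part of the stress-response genes rose. Of 20 integrated and endoplasmic reticulum stress genes 4 were called higher and 1 lower. Ddit3, the transcription factor CHOP, was at 396 and 435 CPM in PLA and 60.3, 84.8 and 96.97 CPM in GelMA (log2 fold change 2.36, SE 0.23, adjusted p = 4.97e-04), and Trib3, its target pseudokinase, was at 38.8 and 35.9 CPM in PLA and 3.03, 6.83 and 6.22 CPM in GelMA (log2 fold change 2.80, SE 0.39, adjusted p = 0.00235). Ppp1r15a, which restores translation after stress, was at 1568 and 1673 CPM in PLA and 395, 532 and 599.8 CPM in GelMA (log2 fold change 1.67, SE 0.28, adjusted p = 0.00573), lost without PLA replicate 2 (adjusted p from 3.27e-19 to 0.0547). These 3 did not overlap between the groups. Phgdh, the first enzyme of serine synthesis, was at 5.47 and 6.53 CPM in PLA and 23.5, 21.5 and 19.2 CPM in GelMA (log2 fold change -1.83, SE 0.37, adjusted p = 0.0146), lost without either PLA library or GelMA replicate 1 (adjusted p from 1.02e-14 to 0.132), and Asns, an ATF4 target that was named after its value was seen, overlapped (log2 fold change -0.13). Of 24 immediate early genes, which also respond to tissue handling, 8 were called higher, led by Ier3 at 1116 and 1045 CPM in PLA and 259.8, 346 and 316 CPM in GelMA (log2 fold change 1.81, SE 0.23, adjusted p = 0.00141), and 1 to 4 were called without any 1 of the 5 libraries. Of 14 heat shock genes, 1 was called, Dnaja1 (log2 fold change 1.54), lost without 9 of the 11 libraries in turn (adjusted p from 9.93e-11 to 0.202). The part of handling in these values was not tested.

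Foreign-body and lipid-handling phagocyte genes were called higher for 5 of 29 members (17.2%, median 0.71). Plin2, the coat protein of lipid droplets, was at 4401 and 4055 CPM in PLA and 455, 748 and 1062 CPM in GelMA (log2 fold change 2.49, SE 0.38, adjusted p = 0.00362). Ctsb, a lysosomal protease, was at 5057 and 4766 CPM in PLA and 1229, 1619 and 1894 CPM in GelMA (log2 fold change 1.64, SE 0.33, adjusted p = 0.0149), lost without PLA replicate 1 or 2 or GelMA replicate 1 or 2 (adjusted p from 3.33e-18 to 0.0998). Ctsd and Fabp5 were called with them. Gpnmb and Spp1, markers of lipid-laden and fusing macrophages that were named after their values were seen, were at 3641 and 3305 CPM in PLA and 559.7, 825 and 1095 CPM in GelMA and 763 and 748 CPM in PLA and 166, 186 and 197 CPM in GelMA, with log2 fold changes of 2.07 and 2.04 and adjusted p = 0.0791 and 0.0692, and both were called over NC in either scaffold. Trem2, Apoe and Abcg1 lay lower in both PLA libraries without passing the test. Of 15 osteoclast genes 3 were called higher, the immune receptor Oscar and the acid-secretion pair Clcn7 and Ostm1. Clcn7, a lysosomal chloride transporter, was at 163 and 166 CPM in PLA and 42.1, 54.6 and 62.7 CPM in GelMA (log2 fold change 1.63, SE 0.22, adjusted p = 0.00213). Ctsk, the collagen-degrading cathepsin of osteoclasts that also marks periosteal stem cells, was at 168 and 209 CPM in PLA and 126, 139 and 131 CPM in GelMA (log2 fold change 0.52, SE 0.67, adjusted p = 0.685) and turned to -0.02 with library size alone. The 5 phagocyte calls were 2 without PLA replicate 1 or GelMA replicate 1 or 2, 3 without PLA replicate 2 and 9 without NC replicate 2. The osteoclast calls were 1 without GelMA replicate 2, where the log2 fold change of Ostm1 came within the threshold, and Oscar (adjusted p from 1.86e-12 to 0.126) was also lost without GelMA replicate 1 and without either PLA library.

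Of 17 endothelial genes, 7 were called higher in PLA than in GelMA (41.2%, median 1.56). Both PLA libraries lay above GelMA in 16, against 27.7% of all genes. Sele, the leukocyte-capturing E-selectin and no member of the list, was at 81.4 and 64.7 CPM in PLA and 6.55, 7.38 and 6.48 CPM in GelMA (log2 fold change 3.42, SE 0.46, adjusted p = 0.00196). Edn1, which encodes endothelin-1, was at 59.9 and 60.2 CPM in PLA and 4.15, 6.98 and 7.04 CPM in GelMA (log2 fold change 3.31, SE 0.51, adjusted p = 0.00394). Nos3, endothelial nitric oxide synthase, was at 19.3 and 11.99 CPM in PLA and 1.83, 4.40 and 3.18 CPM in GelMA (log2 fold change 2.32, SE 0.48, adjusted p = 0.0170). PLA lay above GelMA without overlap in Edn1 and Nos3, which was a condition for naming Sele. Cdh5, Vwf, Egfl7, Plvap and Erg were called as well, while Pecam1 and Kdr had log2 fold changes of 0.40 and -0.31. Activated macrophages can express Edn1 too, and the part of other cell types was not tested. Against NC, 4 members were called higher in PLA (median 0.82) and 1 lower in GelMA (median -0.75), and against CTS 1 was called higher in PLA (median 0.39). Over all 18049 genes, 1502 were called higher in PLA than NC, 580 lower in GelMA than NC and 1158 higher in PLA than CTS. Sele was called lower in GelMA than NC (log2 fold change -1.88) and was not called between PLA and CTS. Nos3, Plvap and Erg were not called between PLA and NC (log2 fold change 1.37, 0.59 and -0.97). Erg was called lower in GelMA than NC (log2 fold change -2.22). The 7 calls fell to 1 or 2 without any 1 of the 5 libraries, with Nos3 lost in 4 of these (adjusted p from 7.57e-08 to 0.143).

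Of 28 fibroblast and matrix genes, 4 were called higher (14.3%, against 4.61% of all genes), Tnc, Ccn2, Thbs1 and Col12a1. Both PLA libraries lay above GelMA in 20, against 27.7% of all genes. The list median of 0.49 became -0.05 with library size alone. Thbs1, the matricellular thrombospondin, was at 2436 and 2211 CPM in PLA and 699, 862 and 791 CPM in GelMA (log2 fold change 1.57, SE 0.24, adjusted p = 0.00363). Tnc, tenascin C of healing matrix, was at 148 and 54.6 CPM in PLA and 15.02, 18.2 and 21.8 CPM in GelMA (log2 fold change 2.46, SE 0.50, adjusted p = 0.0158), with PLA replicate 1 well above replicate 2, and Ccn2, a target of TGF-β and YAP, was at 509 and 343 CPM in PLA and 108, 139 and 89.9 CPM in GelMA (log2 fold change 1.92, SE 0.47, adjusted p = 0.0330). Both calls were lost without PLA replicate 1 or GelMA replicate 1 or 2 (adjusted p from 2.39e-05 to 0.175 and 1.10e-17 to 0.200), that of Ccn2 also without PLA replicate 2, GelMA replicate 3 or CTS replicate 1, and 1 to 3 members were called without any 1 of the 5 libraries. The main fibrillar collagens were not called, as Col1a1 was at 8625 and 12499.9 CPM in PLA and 8563, 8158 and 8342 CPM in GelMA and Col3a1 at 7098 and 13226 CPM in PLA and 9285, 9344 and 10327 CPM in GelMA.

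Of 22 suture and skeletal stem cell genes, 4 were called higher, Itgav, Mcam, Nt5e and Cd200 (18.2%, median 0.69). Itgav, which encodes the integrin Cd51 and is also carried by macrophages, had a log2 fold change of 2.83. Mcam, the Cd146 adhesion molecule of perivascular cells, was at 135 and 84.5 CPM in PLA and 21.1, 30.1 and 34.98 CPM in GelMA (log2 fold change 1.93, SE 0.50, adjusted p = 0.0390). Nt5e, the ectonucleotidase Cd73, was at 204 and 138 CPM in PLA and 37.1, 56.4 and 71.7 CPM in GelMA (log2 fold change 1.63, SE 0.45, adjusted p = 0.0476). In both the PLA libraries were above GelMA. Itgav alone of the 4 remained when any 1 of the 5 libraries was left out (adjusted p from 9.27e-13 to 0.236 for Mcam, 9.10e-09 to 0.265 for Nt5e and 5.83e-09 to 0.218 for Cd200). Gli1 and Axin2, which mark suture stem cells and were named after their values were seen, had log2 fold changes of 0.33 and -0.40. Tagln, a smooth muscle actin-binding protein, was the 1 call among 12 pericyte and smooth muscle genes, at 123 and 85.5 CPM in PLA and 21.9, 35.8 and 30.02 CPM in GelMA (log2 fold change 1.84, SE 0.45, adjusted p = 0.0343), lost without any 1 of the 5 libraries (adjusted p from 2.16e-13 to 0.205).

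Of 21 osteoblast and mineralization genes 0 passed edgeR's quasi-likelihood test, 3 had an unadjusted p under 0.05 and a rise, and DESeq2 on all 4 groups also called 0, whereas edgeR on the 5 libraries called 4 higher and the test without NC replicate 2 called 2. Runx2, the transcription factor of osteoblast commitment, was at 75.7 and 74.7 CPM in PLA and 93.4, 81.5 and 89.7 CPM in GelMA (log2 fold change -0.23). Alpl, the alkaline phosphatase of mineralizing cells, was at 104 and 91.9 CPM in PLA and 102, 92.1 and 68.9 CPM in GelMA (log2 fold change 0.16). Alpl overlapped between the groups. Sp7, Bglap and Phex had at most 1.62 CPM in any of the 5 libraries, so their counts say little about a difference.

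Among granulocyte genes, 2 of 22 neutrophil genes were called higher in PLA (9.09%, against 4.61% of all genes), Trem1 and Il1r2. Trem1, an amplifier of inflammation on neutrophils and monocytes, was at 873 and 978 CPM in PLA and 115, 136 and 156 CPM in GelMA (log2 fold change 2.77, SE 0.46, adjusted p = 0.00568). Il1r2, a decoy receptor of interleukin-1, was at 1111 and 1050.3 CPM in PLA and 243, 359 and 416 CPM in GelMA (log2 fold change 1.67, SE 0.24, adjusted p = 0.00286). Granule genes were not called, with S100a8, Mpo and Camp overlapping between the groups at log2 fold changes of -0.44, -0.14 and 0.26, and the neutrophil list took 1.14 and 1.16% of counts in PLA and 1.65, 1.61 and 0.731% in GelMA. Of 20 eosinophil, mast cell and basophil genes, the eosinophil peroxidase gene Epx and the mast cell protease gene Mcpt2 were called lower (10%, against 1.47% of all genes). Epx and Mcpt2 were already lower in GelMA than NC (log2 fold change -3.77 and -2.64). Against NC, 14 members of this list were called lower in PLA and 12 in GelMA (medians -3.86 and -3.11). Over all 18049 genes the same counts were 724 and 580. Epx had 11 counts over the 2 PLA libraries and 597 over the 3 GelMA libraries, and Mcpt2 had 1 and 90. Without NC replicate 2 the neutrophil rises numbered 5 and the falls of this second list 4. Both calls were lost without any 1 of the 5 libraries or CTS replicate 1 (adjusted p from 8.03e-12 to 0.274 for Epx and 0.00558 to 0.246 for Mcpt2). The haemoglobin gene Hbb-bs, 1 of 16 erythroid genes, had 6 counts in PLA and 521 in GelMA and was lost in the same cases, and globin genes have close copies that could share its reads (adjusted p from 5.74e-10 to 0.171).

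Replication and mitosis genes lay lower in PLA in 31 of 35 members (median -0.96), but only 1 passed the test, the anaphase activator Cdc20, at 2.74 and 1.72 CPM in PLA and 6.73, 6.59 and 6.31 CPM in GelMA (log2 fold change -1.55, SE 0.33, adjusted p = 0.0181), lost without either PLA library or GelMA replicate 1 or 2 (adjusted p from 1.10e-04 to 0.166). Mki67, the proliferation antigen, was at 39.9 and 33.7 CPM in PLA and 113, 105 and 86.9 CPM in GelMA (log2 fold change -1.46, adjusted p = 0.0949). Over all genes, both PLA libraries lay below GelMA in 30.7%. Without NC replicate 2, 15 members were called lower in PLA than GelMA. Against NC, 19 were called lower in PLA (median -1.72) and 1 in GelMA (median -0.77), beside 724 and 580 of all 18049 genes. The list mean was 3.67 and 3.45 log2 CPM in PLA and 5.65, 3.88 and 5.38 in NC. Against CTS, 27 were called lower in PLA (median -2.13), beside 637 of all genes. Of 18 circadian clock genes, Ciart and Nfil3 were called higher (11.1%, against 4.61% of all genes). Nfil3, a repressor that also acts in lymphoid development, was at 337 and 354 CPM in PLA and 163, 164 and 148 CPM in GelMA (log2 fold change 1.13, SE 0.26, adjusted p = 0.0257), and its call was lost without any 1 of the 5 libraries (adjusted p from 1.07e-22 to 0.159). The 13 mitochondrially encoded genes of the list had a median of -0.04, with 0 called by edgeR's quasi-likelihood test, 0 at an unadjusted p under 0.05 and 0 by DESeq2, and took 3.16 and 3.49% of counts in PLA and 5.26, 5.31 and 4.53% in GelMA.

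Changes of scaling or model moved the counts of other lists as well. Library size alone gave 8 falls among the macrophage identity genes, 8 among the plasma cell genes, 13 among the MHC class II genes and 13 among the replication genes. The same scaling gave 8 rises in the NF-κB list, 6 in the receptor list with 4 falls, 3 in the endothelial list, 3 in the phagocyte list, 2 each in the fibroblast, stem cell and immediate early lists and 1 in the osteoclast list. edgeR on the 5 libraries gave 15 falls in the mature B cell list, 11 in the MHC class II list, 11 in the replication list, 7 in the receptor list and 6 in the eosinophil, mast cell and basophil list. It also gave 11 endothelial, 10 phagocyte, 6 pericyte and 5 neutrophil rises.

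**Figure D5:**
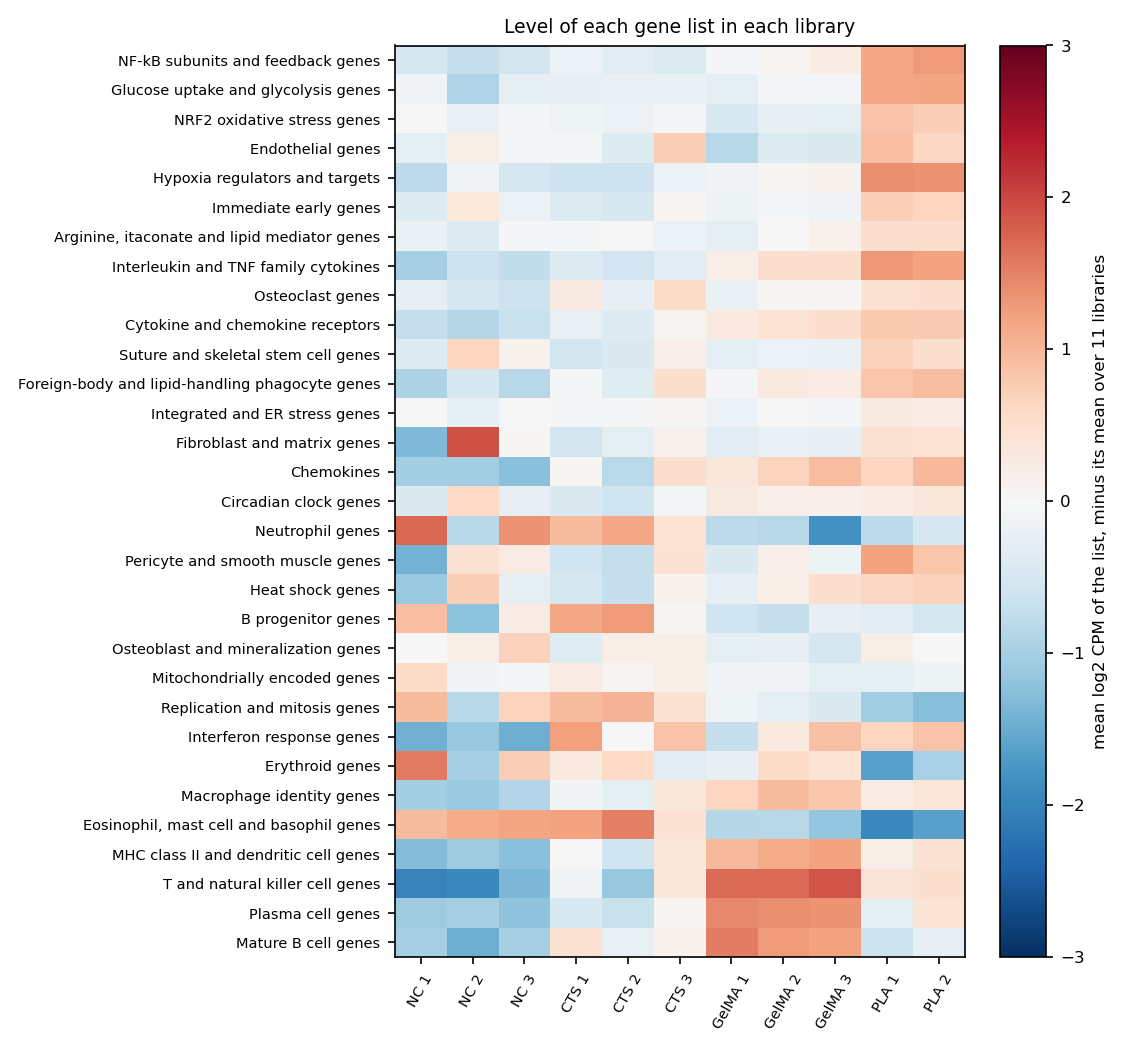
Mean log2 CPM of the tested members of each of 31 gene lists in each library (rows are lists, columns libraries), minus the mean of the list over the 11 libraries, red above and blue below it. The NF-κB, glycolysis, hypoxia and NRF2 rows are highest in the 2 PLA columns, and the mature B, plasma and T cell rows are highest in the 3 GelMA columns.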

How the data were processed

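RNA from Cd45- sorted cells of suture-bony defects was sequenced as 11 libraries. The submitters' processing notes name fastp, HISAT2, HTSeq and DESeq and the build mRatBN7.2, with versions not given in the sources used here, and the strand setting of the counting is not given either. The deposited count table holds the authors' raw counts per gene, and the deposited FPKM table holds values scaled by gene length and library total. Groups and replicates came from the sample titles, and 0 count columns were left unmapped.

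The test of counts was the quasi-likelihood F test of edgeR 4.0.16 in R 4.3.3, robust, after filterByExpr (minimum count 10) and TMM scaling. It used the groups as sole terms and all 11 libraries, which thus shared one estimate of the spread. P-values were two-sided, with Benjamini-Hochberg adjustment across every gene tested, and an SE is the absolute log2 fold change over the root of F. CPM values, taken after TMM, are comparable between libraries but not between genes. The procedure was tested on simulated data.

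There were 31 gene lists. The comparison, the lists and the naming rule were chosen with earlier results of these data known. The rule named Ptprc, the called B cell genes, the 12 largest rises and 12 largest falls at an average log2 CPM of at least 3 with libraries that did not overlap, up to 3 called members per direction of every other list, and Cd200, Itgav, Cd44, Eng, Thy1 and Ctsk. Of the last 6, Cd44 (log2 fold change 0.92, adjusted p = 0.0129), Eng (1.56, 0.0737) and Thy1 (1.39, 0.0550) were not called. Some genes that the rule covers are not reported here. Other genes were named after their values were seen. As alternatives, the scaling was changed to RLE or to library size only, the filter or the fold threshold was dropped, edgeR was restricted to the 5 libraries, DESeq2 1.42.0 or limma 3.58.1 (on log2(FPKM + 1) or log2(FPKM + 0.1)) took its place, a replicate block was added, and each library was left out in turn. Promoter windows came from a RefSeq table on GRCr8 and were searched for the antioxidant response element, the octamer and the kappa B motif on both strands. Figures were drawn with matplotlib 3.10.9.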

Additional observations from a re-analysis of the deposited data

How the results depend on the processing

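The 832 rises and 266 falls in PLA against GelMA changed with the processing, as did the 9 mature B cell falls and the 2 macrophage identity calls. Library size alone gave 438 rises, 2312 falls and 8 macrophage calls. edgeR on the 5 PLA and GelMA libraries gave 1665, 825, 15 B cell falls and 9 macrophage calls. DESeq2 gave 1305 rises, 545 falls and 7 macrophage calls on all 4 groups, and 1892, 947, 15 B cell falls and 11 macrophage calls on the 5 libraries. limma on log2 FPKM gave 440 rises, 1435 falls, 16 B cell falls and 11 macrophage calls with a pseudocount of 1, 449, 2380 and 10 macrophage calls with 0.1, and 369, 1275, 14 and 9 with no filter. Without the fold threshold there were 576 falls. The cause of these shifts was not tested, except that dropping the fold threshold adds genes by construction. Leaving out 1 library gave 366 to 1288 rises, 38 to 624 falls, 4 to 12 B cell falls and 0 to 7 macrophage calls. With a replicate block there were 607 rises, 110 falls, 6 B cell falls and 1 macrophage call. PLA and GelMA share 2 replicate numbers, and deviations of same-numbered libraries from their group means correlated at 0.02 and 0.01. With 2 PLA libraries the deviations of PLA mirror each other, so these values cannot tell whether the libraries were paired. Over the named genes and settings, direction and side of the threshold held in 1846 cases, 359 lost the call, 12 gained one and 4 changed sign. The 4 were the log2 fold change of Ctsk, which was not called, at -0.0214 with library size alone, at -0.0283 in both limma settings with a pseudocount of 1 and at -0.0286 with 0.1. At 29108144 to 30932534 counts per library, genes as low as Rag1, Rag2, Sp7 and Bglap could be compared only with little certainty.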
